A study of Homo sapiens with 12 samples.

Results

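NF-kB is a family of transcription factors that drives inflammatory and survival genes. The genes described here are its subunits NFKB1, NFKB2, RELA and RELB, its inhibitors NFKBIA and NFKBIE, the feedback genes TNFAIP3 and BIRC3, and its targets ICAM1 and CD83. They were chosen by name, as 10 genes, and every probe set of each was taken. Of these 10 genes, 9 had a probe set assigned to them alone in the gene annotation used, out of 11963 genes with one. BIRC3 had none there and was not analysed here. The 9 genes were read by 15 probe sets, with 1 probe set for 5 genes, 2 for RELA and TNFAIP3, and 3 for NFKB2 and ICAM1.

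The arrays held RNA of RCC4, a human cell line established from a clear cell carcinoma of the kidney. There were 4 groups of 3 arrays: siRNA against WWTR1 (siTAZ) with 1 µM erastin, siTAZ with DMSO vehicle, non-targeting siRNA (siNT) with 1 µM erastin, and siNT with DMSO vehicle. WWTR1 encodes the Hippo pathway coactivator TAZ, and erastin is an inhibitor of the cystine/glutamate antiporter that can cause ferroptosis. All cells were transfected for 2 days and then given erastin or DMSO for 7 hours. RCC4 is 1 cell line and the label siTAZ does not say how many siRNA sequences were used, so the values describe this line and this silencing. The triplicates are called biological by the submitters, and no separate cultures or days are named, so the p-values measure the spread between these arrays. Each array averages a whole culture, and fewer cells that express a gene cannot be told apart from less RNA per cell.

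In resting cells NF-kB dimers are held in the cytoplasm by IkB proteins such as those of NFKBIA and NFKBIE. Signals from receptors of the TNF and interleukin 1 families activate IkB kinases, the IkB proteins are degraded, and the dimers enter the nucleus. RELA and the p50 product of NFKB1 form the classical dimer, whereas RELB and the p52 product of NFKB2 form the alternative one. Several of the genes they switch on, among them NFKBIA, NFKBIE, TNFAIP3 and BIRC3, encode proteins that act back on the pathway. Their transcripts are therefore often used as readouts of it, although neither NF-kB protein nor its location was measured here.

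Promoters are shown for 4 of the genes that were higher on siTAZ arrays, since NF-kB acts by binding kB sites in such regions. Each line is the 250 bases before an annotated start, 5′ to 3′ on the gene's strand, from RefSeq on build GRCh38.p14. Capitals mark bases that match the kB consensus on either strand, taken as GGGRNWYYCC. There R is A or G, N any base, W A or T, and Y C or T. Stretches that depart from this pattern were not counted, such as tggaaattcc in the ICAM1 window, which differs at its first base. CD83 has 2 annotated starts in the table, and the window with more matches is printed.
CD83, chr6:14117522-14117771, plus strand: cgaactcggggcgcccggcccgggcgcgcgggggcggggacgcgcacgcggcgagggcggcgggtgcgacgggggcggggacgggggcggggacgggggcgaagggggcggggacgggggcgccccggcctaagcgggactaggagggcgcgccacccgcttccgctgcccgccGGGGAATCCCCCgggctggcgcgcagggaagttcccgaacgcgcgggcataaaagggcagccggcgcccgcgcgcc
TNFAIP3, chr6:137867009-137867258, plus strand: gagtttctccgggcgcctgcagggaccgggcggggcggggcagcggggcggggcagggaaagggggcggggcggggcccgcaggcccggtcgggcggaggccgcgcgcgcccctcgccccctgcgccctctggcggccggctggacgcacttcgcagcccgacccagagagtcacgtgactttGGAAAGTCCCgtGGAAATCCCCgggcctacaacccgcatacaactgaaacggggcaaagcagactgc
NFKBIA, chr14:35404750-35404999, minus strand: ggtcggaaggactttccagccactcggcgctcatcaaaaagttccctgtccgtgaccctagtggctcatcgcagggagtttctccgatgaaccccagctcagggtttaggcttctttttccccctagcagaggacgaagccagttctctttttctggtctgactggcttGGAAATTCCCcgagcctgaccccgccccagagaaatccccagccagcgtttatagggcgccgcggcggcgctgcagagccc
ICAM1, chr19:10270870-10271119, plus strand: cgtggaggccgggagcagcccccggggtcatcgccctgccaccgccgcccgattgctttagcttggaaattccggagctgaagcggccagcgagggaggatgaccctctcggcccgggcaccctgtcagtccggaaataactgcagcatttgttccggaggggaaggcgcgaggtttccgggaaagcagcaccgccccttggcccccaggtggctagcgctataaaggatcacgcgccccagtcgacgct
The CD83 window held 3 overlapping matches, the TNFAIP3 window 2 separate ones, the NFKBIA window 1 and the ICAM1 window 0. Of the 35116 windows of this length in the table, 5.21% held a match and 0.635% held 2 or more. Of the 10 genes, 8 had a window in the table, 13 windows in all, of which 7 held a match. These belonged to 6 genes. The exceptions were RELA and ICAM1, and RELB and NFKBIE had no entry. The genes were chosen for their part in the NF-kB pathway, so their share is no test against that over all windows. The motif GGAATG, which TEAD factors, the DNA-binding partners of TAZ, can bind, was searched on both strands. It was in 1 of the 13 windows (of NFKB1, not printed), and in 11.9% of all windows. A match is a description of the letters and not evidence of binding, and a window without a match can hold a kB site outside the pattern.

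**Figure D1:**
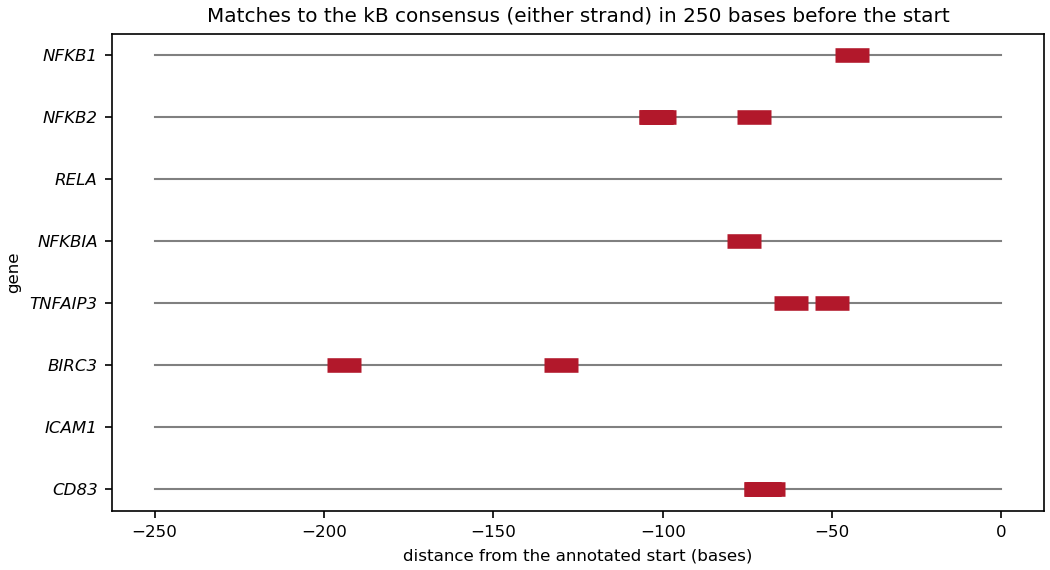
Positions of matches to the kB consensus (thick bars, either strand) in the 250 bases before the annotated start of the 8 genes in the promoter table, with the distance from the start in bases on the x axis and 1 gene per row. For genes with several starts the window with most matches is drawn. The matches of TNFAIP3, CD83 and NFKBIA lie within 81 bases of the start, and RELA and ICAM1 have no match. BIRC3 is drawn although the annotation used assigned it no probe set of its own, so its signal was not analysed.

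Array medians lay between 6.48 and 6.54 log2 units. The targeted transcript was low on every siTAZ array: the brightest WWTR1 probe set averaged 9.25 ± 0.14 on siTAZ arrays and 12.28 ± 0.06 on siNT arrays (SD, n = 6 each), which left 12.2% of the signal (exact two-sided permutation p = 0.00216, the smallest that 6 against 6 arrays allow). Of 12 measured renal and clear cell carcinoma markers, 10 were brighter than the median gene, with PAX8 at 10.61 and CA12 at 10.43, and LRP2 and AQP1 were dim at 2.83 and 4.25. All 13 leukocyte markers lay below the median gene, at 3.03 to 5.52. The mean of that list was 4.15 to 4.33 on siTAZ erastin arrays, 4.16 to 4.27 on siTAZ vehicle, 4.11 to 4.34 on siNT erastin and 4.20 to 4.31 on siNT vehicle arrays. This bears on CD83, which is best known as a marker of mature dendritic cells: the dendritic markers CD1C, LAMP3 and CCR7 had mean signals of 5.22, 3.03 and 3.39. RNA quality was read from the actin control probes, as the signal at the 3′ end less that at the 5′ end. This difference was 3.25 ± 0.33 on siTAZ erastin, 2.65 ± 0.04 on siTAZ vehicle, 2.26 ± 0.69 on siNT erastin and 2.68 ± 0.28 on siNT vehicle arrays (SD, n = 3 each), and siNT erastin replicate 3 was lowest at 1.49. The GAPDH controls differed less between groups, at 0.20 ± 0.06, 0.20 ± 0.07, 0.15 ± 0.08 and 0.18 ± 0.07 in the same order. They were not used as a covariate.

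With WWTR1 silenced in vehicle, CD83 rose 1.33-fold and TNFAIP3 1.29-fold, NFKBIE fell, and ICAM1 rose by a small amount in the fit over genes. None of NFKB1, NFKB2, RELA and RELB passed the test, nor did NFKBIA. Rose and fell are used of genes with a limma p under 0.05 after Benjamini-Hochberg adjustment over 11963 genes. Changes are log2 fold changes of the brightest probe set ± SE. Of the 9 genes, 3 rose and 1 fell, and in all 28.6% of genes were called in this comparison, 14.7% upward and 13.9% downward. The median change was 0.05 over the 9 genes and −0.01 over all genes.

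CD83 encodes an immunoglobulin family membrane protein and is a known NF-kB target. Its log2 signal was 8.66, 8.73 and 8.71 on the siTAZ vehicle arrays, against 8.26, 8.33 and 8.26 on the siNT vehicle arrays. The groups did not overlap, which held for 43.8% of all genes. The change was 0.42 ± 0.05 (limma adjusted p = 9.12e-05).

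TNFAIP3 encodes A20, a ubiquitin-editing enzyme that restrains signalling from TNF and Toll-like receptors. It had log2 signals of 10.29, 10.26 and 10.21 on siTAZ vehicle arrays, against 9.84, 9.93 and 9.89 on siNT vehicle arrays. All siTAZ values were above all siNT values, and the change was 0.37 ± 0.05 (limma adjusted p = 0.000126). Its dimmer probe set gave 0.37 ± 0.12 and was called as well when all 19064 probe sets were fitted (limma adjusted p = 0.0462), where 24.3% of probe sets were called.

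NFKBIE encodes IkB epsilon, which holds REL and RELA dimers in the cytoplasm. It moved the other way, with 7.97, 8.05 and 7.97 on siTAZ vehicle arrays, against 8.43, 8.44 and 8.33 on siNT vehicle arrays. The groups did not overlap, and NFKBIE fell by 0.41 ± 0.06 on the log2 scale (limma adjusted p = 0.000338).

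ICAM1 encodes an adhesion molecule that binds leukocyte integrins. Its brightest probe set had 9.67, 9.75 and 9.68 on siTAZ vehicle arrays, against 9.50, 9.50 and 9.59 on siNT vehicle arrays. That change of 0.17 ± 0.06 was called in the fit over genes (limma adjusted p = 0.0416) but not in the fit over probe sets (0.0574), and the other probe sets gave −0.06 ± 0.06 and 0.05 ± 0.08 without a call. With the mean of the 3 probe sets the change was 0.06 (limma adjusted p = 0.477), and the call ended on removal of any 1 siTAZ vehicle array, and likewise of siNT vehicle replicate 1 or of replicate 2. It held in 5 of 15 alternatives, and was also lost with median centring (0.0592), a second quantile normalisation (0.0522) and the replicate block (0.0757), each a limma adjusted p.

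NFKBIA encodes IkB alpha, the inhibitor whose resynthesis ends a pulse of NF-kB activity. It had 9.55, 9.58 and 9.46 on siTAZ vehicle arrays, against 9.43, 9.46 and 9.54 on siNT vehicle arrays, and the groups overlapped (change 0.05 ± 0.06, 95% interval −0.08 to 0.18). Among the subunits, RELA differed by −0.02 ± 0.05 with an interval of −0.12 to 0.08. RELB differed by 0.06 ± 0.07 (−0.10 to 0.21). NFKB1 had 0.00 ± 0.09 (−0.19 to 0.19) and NFKB2 −0.07 ± 0.08 (−0.26 to 0.11). Arrays of the 2 groups overlapped for each of these subunits.

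**Figure D2:**
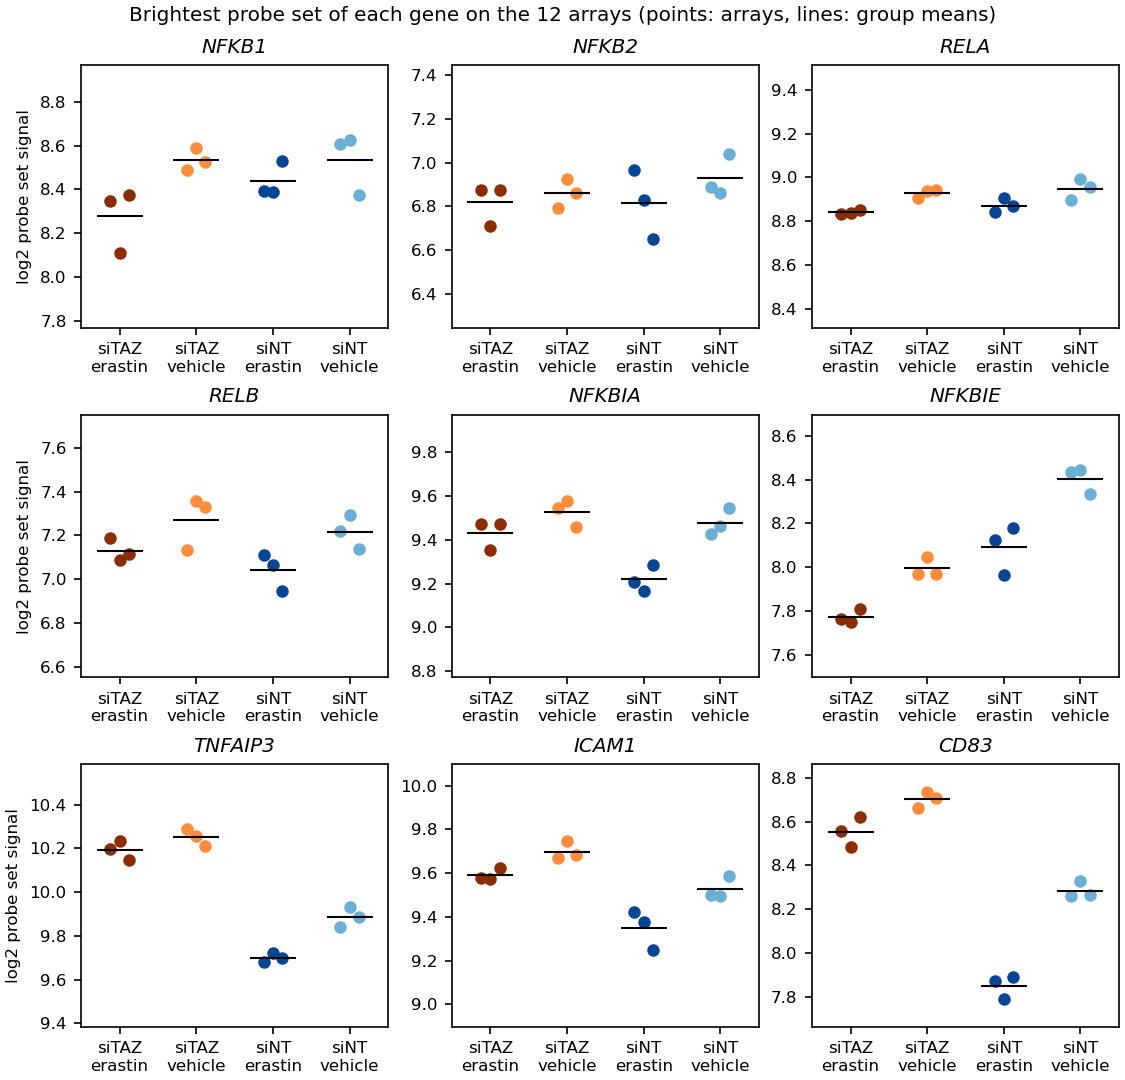
Log2 signal of the brightest probe set of the 9 measured genes on each array (points) with the group mean (line), 1 panel per gene; every y axis spans 1.2 log2 units. CD83 and TNFAIP3 are highest on the siTAZ arrays in either medium, NFKBIE is lowest on siTAZ erastin arrays (7.75 to 7.81), and the 4 subunits in the first panels overlap between most groups.

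The same question was asked in erastin-treated cells, on arrays that the vehicle comparison does not share. CD83, TNFAIP3, ICAM1 and NFKBIA rose with siTAZ under erastin and NFKBIE fell, whereas no subunit passed the test. CD83 changed most, by 0.70 ± 0.05 or 1.63-fold. In this comparison 28.2% of all genes were called, 15.6% upward and 12.6% downward, and in 38.8% the groups did not overlap. The median change was 0.09 over the 9 genes and 0.01 over all genes.

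CD83 had 8.56, 8.48 and 8.62 on siTAZ erastin arrays, against 7.87, 7.79 and 7.89 on siNT erastin arrays (limma adjusted p = 1.68e-06). TNFAIP3 had 10.20, 10.23 and 10.15 on siTAZ erastin arrays, against 9.68, 9.72 and 9.70 on siNT erastin arrays. Its values thus stood clear of each other, and the change was 0.49 ± 0.05, or 1.41-fold (limma adjusted p = 1.30e-05). On its dimmer probe set the change was 0.29 ± 0.12 and was not called (limma adjusted p = 0.112, with 24.6% of probe sets called). The siTAZ erastin arrays had 7.64 to 7.78 there, and siNT erastin replicate 3 had 7.78, against 7.28 and 7.23 on the other siNT erastin arrays.

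NFKBIA, the IkB alpha gene, had 9.47, 9.35 and 9.47 on siTAZ erastin arrays, against 9.21, 9.17 and 9.28 on siNT erastin arrays. It rose by 0.21 ± 0.06 with no overlap (limma adjusted p = 0.0175), and leaving out siTAZ erastin replicate 1, siTAZ erastin replicate 3 or siNT erastin replicate 2 ended the call, as did fitting only the 2 compared groups (limma adjusted p = 0.0577). ICAM1, the adhesion molecule gene, had 9.58, 9.58 and 9.62 on siTAZ erastin arrays, against 9.42, 9.38 and 9.25 on siNT erastin arrays. Its change was 0.24 ± 0.06 (limma adjusted p = 0.00691), its other probe sets gave 0.04 ± 0.06 and −0.04 ± 0.08, and the mean of the 3 gave 0.08 (limma adjusted p = 0.264). NFKBIE had 7.76, 7.75 and 7.81 on siTAZ erastin arrays, against 8.13, 7.97 and 8.18 on siNT erastin arrays, and fell by 0.32 ± 0.06 (limma adjusted p = 0.00214).

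The actin 3′ minus 5′ difference moved with these groups. With it as a covariate CD83 (0.75 ± 0.07), TNFAIP3 (0.47 ± 0.07) and NFKBIA (0.27 ± 0.08) kept their calls, whereas NFKBIE (−0.23 ± 0.08, limma adjusted p = 0.073) and ICAM1 (0.14 ± 0.07, limma adjusted p = 0.187) lost them. Without siNT erastin replicate 3, the array with the lowest actin 3′ minus 5′ difference, all 5 calls held, with CD83 at 0.72, TNFAIP3 at 0.49, NFKBIA at 0.24, ICAM1 at 0.19 and NFKBIE at −0.27.

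The subunits had intervals that included 0 here as well. NFKB1 had 8.35, 8.11 and 8.37 on siTAZ erastin arrays, against 8.40, 8.39 and 8.53 on siNT erastin arrays. All siTAZ values lay below the siNT values by a narrow margin, with a change of −0.16 ± 0.09 (95% interval −0.35 to 0.03, limma adjusted p = 0.203). The changes of RELA (−0.03), RELB (0.09) and NFKB2 (0.00) had limma adjusted p-values of 0.718, 0.428 and 0.985. For NFKB2 the dimmer probe sets gave −0.14 and −0.06, and the dimmest, with a mean signal of 4.51, was in the range of the leukocyte markers.

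**Figure D3:**
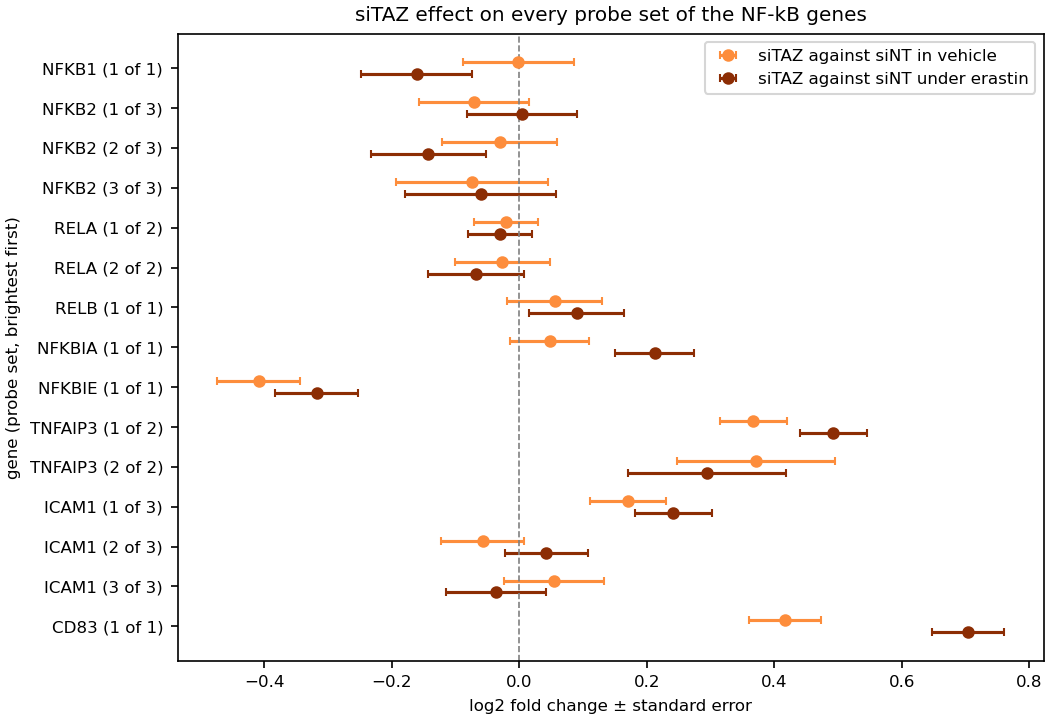
Log2 fold change of siTAZ against siNT ± SE for each of the 15 probe sets, ordered by gene and from the brightest to the dimmest, under erastin (dark) and in vehicle (light). Both TNFAIP3 probe sets lie right of 0, only the first of the 3 ICAM1 probe sets does so clearly, and all NFKB1, NFKB2 and RELA probe sets lie at or left of 0 to within 1 SE.

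In siNT cells CD83 and NFKBIE fell with erastin and the other 7 genes did not pass the test. All 9 log2 fold changes were below 0, from −0.43 to −0.08, and 51.6% of all genes had a change below 0. Of the 15 probe sets, 14 lay below 0. The dimmest of ICAM1 gave 0.02 ± 0.08, and the dimmer one of TNFAIP3 −0.09 ± 0.12. In this comparison 0.802% of all genes were called, 0.276% as falls. CD83 had 7.87, 7.79 and 7.89 on siNT erastin arrays, against 8.26, 8.33 and 8.26 on siNT vehicle arrays, and fell by 0.43 ± 0.05 on the log2 scale (limma adjusted p = 0.00242). By size, this change ranked 55 among the 11963 genes. With only those 2 groups in the fit its adjusted p was 0.0583.

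NFKBIE had 8.13, 7.97 and 8.18 on siNT erastin arrays, against 8.43, 8.44 and 8.33 on siNT vehicle arrays, and fell by 0.31 ± 0.06 (limma adjusted p = 0.0413). That call was lost without any of the 3 siNT vehicle arrays or siNT erastin replicate 1 or 2 (change −0.35 to −0.25). NFKBIA had 9.21, 9.17 and 9.28 on siNT erastin arrays, against 9.43, 9.46 and 9.54 on siNT vehicle arrays. These values did not overlap, and its change of −0.26 ± 0.06 did not pass the test (limma adjusted p = 0.0807).

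Further values were −0.18 ± 0.05 for TNFAIP3, −0.18 ± 0.06 for ICAM1 and −0.18 ± 0.07 for RELB, with limma adjusted p-values of 0.151, 0.257 and 0.413. In 6 of the 9 genes the siNT erastin values all lay below the siNT vehicle values, and non-overlap in either direction held for 14.4% of all genes. NFKB1 (−0.10), NFKB2 (−0.11) and RELA (−0.08) were the others, and their arrays overlapped. The median change was −0.18 over the 9 genes and 0.00 over all genes. The siNT vehicle arrays are also those against which siTAZ in vehicle was compared.

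In siTAZ cells erastin gave no call among the 9 genes in limma, against 0.56% of all genes (0.46% upward and 0.1% downward), and 3 of them (NFKB1, NFKBIE and CD83) had an unadjusted p under 0.05, as 10.2% of all genes did. CD83 had 8.56, 8.48 and 8.62 on siTAZ erastin arrays, against 8.66, 8.73 and 8.71 on siTAZ vehicle arrays, a change of −0.15 ± 0.05 (limma adjusted p = 0.384). NFKBIE had 7.76, 7.75 and 7.81 on siTAZ erastin arrays, against 7.97, 8.05 and 7.97 on siTAZ vehicle arrays, a change of −0.22 ± 0.06 (limma adjusted p = 0.223). NFKB1, the p50 precursor gene, had −0.26 ± 0.09 (limma adjusted p = 0.358).

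For 5 of the 9 genes the siTAZ erastin values all lay below the siTAZ vehicle values, and 20.7% of all genes did not overlap in this comparison. All 9 changes were negative, from −0.26 to −0.04, and the median was −0.11, against 0.01 over all genes. Of all genes, 45.3% had a change below 0. Each of the 15 probe sets lay below 0. Without siTAZ erastin replicate 2 the change of NFKB2 was 0.01. With all arrays the 9 genes were below 0 in both erastin comparisons, which share no arrays, and 25.8% of all genes were. The actin 3′ minus 5′ difference also separated the siTAZ groups, at 3.01 to 3.63 with erastin and 2.62 to 2.70 with vehicle. Its part in these changes was not tested.

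**Figure D4:**
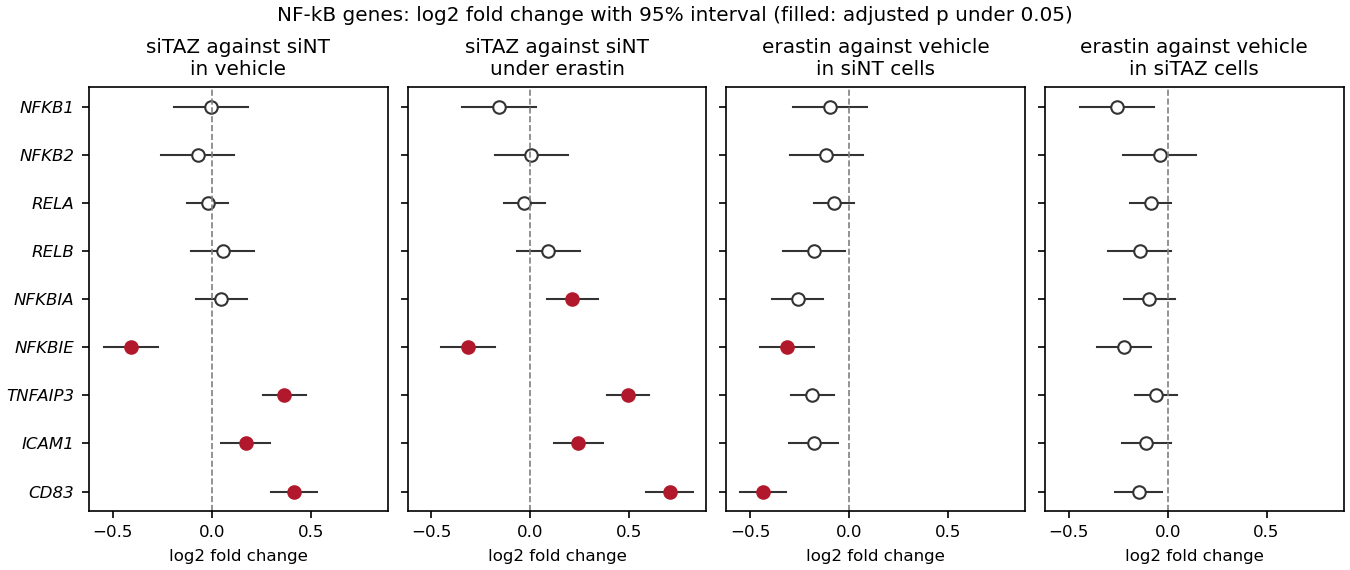
Log2 fold change of the 9 genes with its 95% interval in each of the 4 comparisons; filled points passed the test at an adjusted p under 0.05. In the siTAZ panels CD83 and TNFAIP3 lie right of 0 and NFKBIE left of it, and in the erastin panels all 9 points lie left of 0 with CD83 and NFKBIE filled in siNT cells.

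Whether the erastin response differed between siTAZ and siNT cells was tested by the interaction. It was called for 0 of the 9 genes and for 0 of all 11963 genes in limma (0% called), and for CD83 alone among the 9 the unadjusted p was under 0.05, against 6.39% of all genes. The CD83 response to erastin was −0.15 in siTAZ cells and −0.43 in siNT cells, a difference of 0.29 ± 0.08 (95% interval 0.12 to 0.45, unadjusted p = 0.0027, limma adjusted p = 0.718). For NFKBIA the difference was 0.16 ± 0.08, for TNFAIP3 0.13 ± 0.07 and for NFKBIE 0.09 ± 0.09, with limma adjusted p-values of 0.776, 0.776 and 0.845. The mean actin 3′ minus 5′ difference was higher with erastin in siTAZ cells (3.25 against 2.65) and lower in siNT cells (2.26 against 2.68). Its part in the interaction was not tested.

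The order of the 4 group means differed between genes. On their brightest probe sets CD83, TNFAIP3 and ICAM1 shared an order, with siNT erastin lowest, then siNT vehicle, siTAZ erastin and siTAZ vehicle. Neighbours in that order did not overlap for CD83 at any step. Over all genes, non-overlap held for 14.4% between the siNT groups and 20.7% between the siTAZ groups. For siNT vehicle against siTAZ erastin the share was not counted. For TNFAIP3 the siTAZ erastin and siTAZ vehicle arrays overlapped, and for ICAM1 the siNT vehicle and siTAZ erastin arrays did. The dimmer TNFAIP3 probe set had the same order of means, and the dimmer ICAM1 probe sets did not. Of these ICAM1 probe sets, the brighter had siNT vehicle highest (8.67) and the dimmest had siTAZ erastin lowest (6.80). NFKBIE ran from siTAZ erastin through siTAZ vehicle and siNT erastin to siNT vehicle, and its middle groups overlapped. For NFKB2, RELA and RELB every pair of neighbours overlapped. For NFKB1 and NFKBIA only siTAZ erastin and siNT erastin did not overlap among neighbours, as for 38.8% of all genes.

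For CD83, TNFAIP3 and NFKBIE, whose group means spanned 0.85, 0.55 and 0.63 log2 units, the genes with the most similar profile over the 12 arrays were found by the root mean square difference after centring each gene. Nearest to CD83 were FZD5 (0.08 log2 units), a Wnt receptor gene, DNAJB1 (0.08), which encodes a heat shock co-chaperone, and SYNJ2 (0.09), a phosphoinositide phosphatase gene. Nearest to TNFAIP3 were MAPK1IP1L and PLPBP (0.05 each) and PDGFA (0.06), a growth factor gene. Nearest to NFKBIE were CCNE1 (0.05), the cyclin E gene, IER5 (0.06), an immediate early gene, and LRRC8B (0.07), which encodes a subunit of volume-regulated anion channels.

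Other genes of the pathway were grouped by role in lists from general knowledge, drawn up with earlier results of these data known. A list's share is therefore no test against that over all genes. With siTAZ the listed genes were called in both directions. Over all genes 28.6% were called in vehicle and 28.2% under erastin. Among ligands and receptors 3 of 21 measured rose and 4 fell in vehicle (33.3% called), and 2 rose and 4 fell under erastin (28.6% called), which is near those shares. IL1R1, the interleukin 1 receptor gene, rose by 0.93 ± 0.06 in vehicle and 0.95 ± 0.06 under erastin. In the fit over probe sets its dimmer one gave 0.36 ± 0.07 in vehicle with a call. Under erastin that probe set gave 0.19 ± 0.07 without a call (limma adjusted p = 0.0811). CD40, a TNF receptor family member, had −0.48 ± 0.07 and −0.46 ± 0.07, and its 3 dimmer probe sets lay between −0.98 and −0.50. LTB, the lymphotoxin beta gene, had −0.95 ± 0.07 in vehicle and −0.41 ± 0.07 under erastin, and IL18 had 0.53 ± 0.06 and 0.27 ± 0.06. Each of the 8 values from the brightest probe sets of IL1R1, CD40, LTB and IL18 had a call. TNFRSF11A, the RANK gene, fell by 0.30 ± 0.10 in vehicle and by 0.43 ± 0.10 under erastin.

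Among adaptors, ligases and kinases 3 of 23 rose and 5 fell in vehicle (34.8% called, against 28.6% of all genes), and 2 rose and 5 fell under erastin (30.4%, against 28.2%). The same 5 fell in both media. RBCK1, a part of the linear ubiquitin ligase, fell by 0.61 ± 0.05 in vehicle and by 0.49 ± 0.05 under erastin. IKBKE, which encodes an IkB kinase-related kinase, fell by 0.55 ± 0.07 and by 0.38 ± 0.07. MAP3K14, the NIK kinase of the alternative pathway, fell by 0.44 ± 0.06 and by 0.36 ± 0.06. BIRC2, which encodes cIAP1 and is the paralogue of BIRC3, fell by 0.27 ± 0.05 and by 0.28 ± 0.05. IRAK1, a kinase gene of the interleukin 1 receptor pathway, was the fifth of these, at −0.31 and −0.16. TRAF5, an adaptor gene, rose by 0.69 ± 0.07 and by 0.99 ± 0.07 at a dim mean signal of 5.44.

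Of 12 other negative regulators 3 rose and 3 fell in vehicle (50% called, against 28.6% of all genes), and 1 rose and 0 fell under erastin (8.33%, against 28.2%, with 0 to 2 genes called over the alternatives). PDLIM2 had −0.39 ± 0.09, TRAIP −0.29 ± 0.07 and TNIP2 −0.21 ± 0.05 in vehicle, each with a call. TNIP1, which encodes a partner of A20, rose by 0.17 ± 0.05 in vehicle and by as much under erastin. CYLD, the gene of a deubiquitinase that opposes the IkB kinases, rose by 0.19 ± 0.06 in vehicle on its brightest probe set. Under erastin that probe set gave 0.14 ± 0.06 without a call (limma adjusted p = 0.103), so CYLD was not counted there. Its probe sets disagreed. Fitted among all 19064 probe sets, the next 3 in brightness gave 1.19 ± 0.09, 1.11 ± 0.06 and 1.45 ± 0.10 in vehicle, and 1.43 ± 0.09, 1.21 ± 0.06 and 1.42 ± 0.10 under erastin. The largest limma adjusted p among those 6 values was 2.06e-06. The fifth CYLD probe set in brightness gave 0.59 ± 0.07 in vehicle and 0.72 ± 0.07 under erastin, each with a call. The dimmest ones had no call. Of 3 other subunits and IkB-like genes measured, none was called in vehicle and NFKBIB fell under erastin (−0.23 ± 0.07).

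Of 41 other NF-kB target genes 10 rose and 16 fell in vehicle (63.4% called, against 28.6% of all genes), and 13 rose and 17 fell under erastin (73.2%, against 28.2%). Of the genes that fell, 15 did so in both media, which is 15 of 16 in vehicle and 15 of 17 under erastin; of all genes that fell, 68.8% of those in vehicle and 76.2% of those under erastin did so in both. Of those that rose, 8 did so in both, which is 8 of 10 and 8 of 13, against 79.5% and 74.7% of all genes that rose. CFLAR is among these 8 by its brightest probe set (0.27 in vehicle and 0.35 under erastin), and the next gave 0.24 and 0.30. Several dimmer CFLAR probe sets were called downward in both media, such as the third brightest at −0.39 and −0.50. The list's median change was −0.08 in vehicle and −0.13 under erastin, against −0.01 and 0.01 over all genes. With the actin covariate 10 rose and 15 fell under erastin.

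The interleukin gene IL6 fell by 0.93 ± 0.06 in vehicle and by 0.79 ± 0.06 under erastin, and the chemokine gene CXCL1 fell by 0.89 ± 0.07 in vehicle and by 0.92 ± 0.07 under erastin. CXCL8, the interleukin 8 gene, fell by 0.35 ± 0.07 in vehicle and by 0.87 ± 0.07 under erastin. In the fit over probe sets its dimmer one gave −0.33 ± 0.32 in vehicle without a call (limma adjusted p = 0.536). Under erastin that probe set gave −1.66 ± 0.32 with a call (limma adjusted p = 0.00196). TNFRSF11B and the BCL2 family gene BCL2A1 fell by 1.95 ± 0.11 and 1.41 ± 0.11 in vehicle, to mean signals of 4.40 and 4.48 in the range of the leukocyte markers. The chemokine gene CCL2 rose by 0.61 ± 0.12 in vehicle and by 0.86 ± 0.12 under erastin. The direction of CD83, TNFAIP3 and the brightest ICAM1 probe set was thus shared by some targets and opposed by others. No single direction held for the list.

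With erastin 3 of the 100 genes in these lists were called in siNT cells and 3 in siTAZ cells, against 0.802% and 0.56% of all genes. In siNT cells LTB (−0.43 ± 0.07), BCL2A1 (−0.58 ± 0.11) and the urokinase receptor gene PLAUR (−0.46 ± 0.05) fell, and in siTAZ cells CXCL8 (−0.41 ± 0.07), the TRAIL gene TNFSF10 (−0.34 ± 0.06) and PLAUR (−0.28 ± 0.05) fell. The count of 3 targets in siTAZ cells dropped to 0 or 1 on leaving out any of its 6 arrays. It was also 0 with the mean of probe sets, the actin covariate or the replicate block. With only the 2 compared groups or every probe set fitted it was 1, and with trend and robust variances 7. In siNT cells the 2 target calls became 1 without any 1 array but siNT erastin replicate 3, and the LTB call was lost without siNT vehicle replicate 1, siNT vehicle replicate 3 or siNT erastin replicate 2. With only the 2 compared groups, the siNT counts were 0 for targets and 0 for ligands and receptors. The siNT target count was 1 with the replicate block, 4 with the filter on dim genes and 7 with trend and robust variances. No gene of the 5 lists rose with erastin in limma in either cell state.

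**Figure D5:**
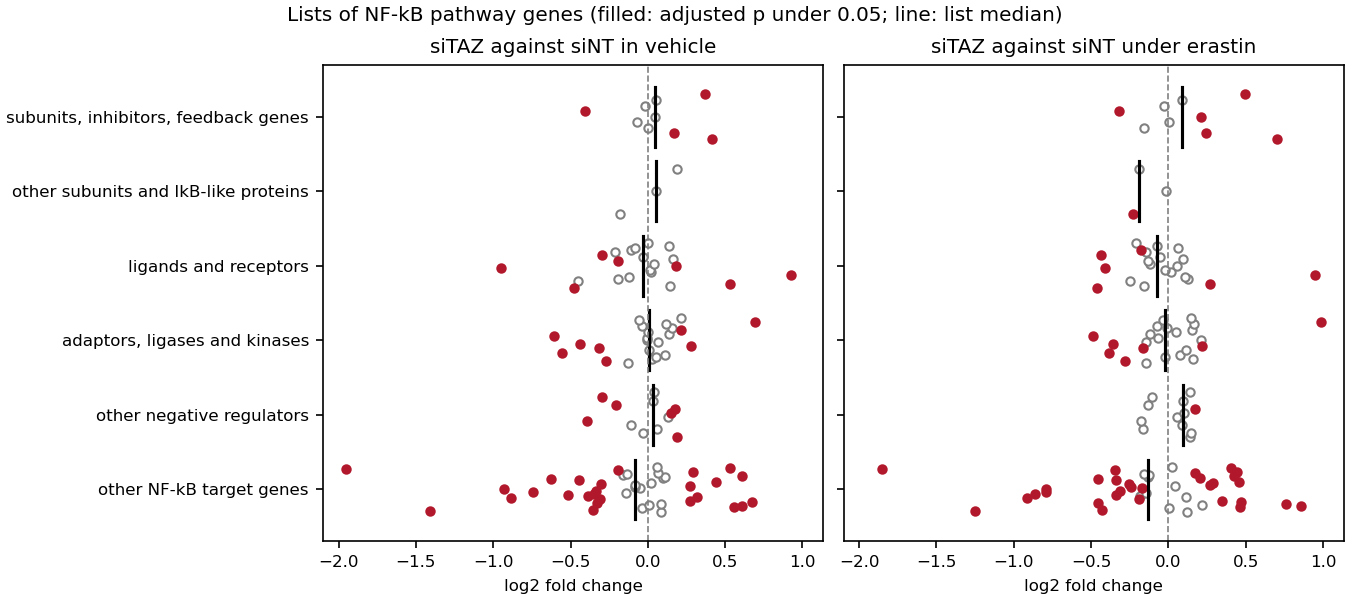
Log2 fold change of siTAZ against siNT for the genes of 6 pathway lists in vehicle and under erastin; each point is a gene, filled where the adjusted p was under 0.05, and the vertical line is the list median. Called genes lie on both sides of 0 in every list with more than 1 call, and the target genes spread widest, with TNFRSF11B at −1.95 and −1.85.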

How the data were processed

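The deposited values are on the log2 scale. The authors used RMA in Affymetrix Expression Console, per the submitters' processing notes, and the sources used here give no version. RMA corrects background, normalises between arrays and summarises probes on the log2 scale. Of 22277 probe sets, those for controls (62), for several genes (1043) and with no gene listed (2108) did not enter. This left 19064 for 11963 genes, each represented by its brightest probe set, by the mean of the 12 arrays. All arrays entered 1 fit with a mean per group in limma 3.58.1 (R 4.3.3; 8 residual and 3.9 prior degrees of freedom), and 5 comparisons were drawn from it. A second fit took all 19064 probe sets. With 3 arrays against 3, an exact permutation test cannot give a p under 0.1. The number of arrays limits the precision.

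The genes, lists and rules for naming genes were chosen with earlier results of these data known. The text could name the 10 genes, WWTR1, up to 4 called genes per list and comparison with the largest change, markers, and the 3 nearest profiles of genes whose group means spanned at least 0.5 log2 units. BIRC2, IRAK1, CCL2 and CFLAR fall outside this rule and were named after their values were seen. Replicate numbers were not taken as pairs. Of 18 same-numbered pairs of arrays, 4 had deviations from the group means that correlated above 0.1 (range −0.42 to 0.36). The largest, 0.36 and 0.30, joined siNT erastin with siTAZ erastin, for replicates 2 and 3. With 3 arrays a group these values cannot show whether the samples were paired. Alternatives were another centring, a second quantile normalisation, a filter on dim genes, the mean of probe sets, trend and robust variances, only the compared groups, the actin covariate, the replicate block and leaving out each array.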

Additional observations from a re-analysis of the deposited data

How the results depend on the processing

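CD83, TNFAIP3 and NFKBIE kept their siTAZ calls in vehicle, and CD83 and TNFAIP3 those under erastin, in each of 15 alternatives per comparison. Over the 9 genes and 5 comparisons, 691 of 720 member values kept their side of the threshold, 26 lost a call, 3 gained one and 0 reversed. The 3 gains were NFKBIA for erastin in siNT cells. With the actin covariate 3 members were called for siTAZ under erastin. For erastin in siNT cells, 0 members were called with only the 2 compared groups and 1 with the replicate block or with every probe set fitted; leaving out 1 array gave 1 to 2. All-gene counts there were 186 with trend and robust variances, 15 with only the compared groups, 39 with the replicate block and 30 to 65 without 1 array. For erastin in siTAZ cells they were 164 with trend and robust variances, 34 with the replicate block and 30 to 41 without 1 array. The reported counts are 96 in siNT and 67 in siTAZ cells. Interaction counts were 3 with median centring, the second quantile normalisation or the filter on dim genes, 10 with trend and robust variances, and 0 to 1 without 1 array (1 without siNT erastin replicate 3). For siTAZ, leaving out 1 array gave 3 to 4 members and 2809 to 3030 genes in vehicle, and 4 to 5 members and 2775 to 3236 genes under erastin. The labels link arrays of different groups only by a replicate number, so the block cannot be taken as a paired analysis. The causes were not tested. Of 400 pathway list counts, 49 moved by over 1.5 times. SEs of the 9 genes were 0.05 to 0.09 log2 units in pairwise comparisons.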
